A study of Drosophila melanogaster with 27 samples.

Results

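The last hours before pupariation were examined in whole *w1118* larvae of *Drosophila melanogaster* by comparing 3 arrays of late larvae at -4 h with 3 arrays at -18 h, the 6 larval arrays chosen by their titles from the 27 arrays of a time course around pupariation. Both groups carried the same *w1118* genotype, were listed with no treatment and were staged with 0.05% bromophenol blue in the food. Wandering larvae whose guts were still dark blue were taken as -18 h, and those whose guts had cleared were taken as -4 h, so gut content was itself the staging criterion. Each array was hybridised with RNA from 10 whole animals whose sex the labels do not give. Per the methods of the study, the triplicates were independent experiments, while the labels do not describe the collections.

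The steroid 20-hydroxyecdysone (20E) is released in a pulse at the end of larval life and ends larval growth. It binds the EcR and Usp receptor, which activates a small set of regulatory genes, and their products in turn switch stage-specific and tissue-specific genes. At this time the larva stops feeding, leaves the food and empties its gut, the salivary glands fill with glue, the fat body is loaded with storage proteins, and the epidermis prepares to turn the larval cuticle into the tanned puparium.

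The nuclear receptor gene *Eip78C* and the transcription factor gene *Sox14* had higher levels at -4 h than at -18 h. Also higher were enzymes of catecholamine metabolism (*ple*, *Ddc*, *e*) and the antimicrobial peptide genes *Drs* and *Drsl5*. The small heat shock protein genes *Hsp26* and *Hsp27* and 20 of 26 proteasome subunits rose as well. The genes that fell included 14 of 27 digestive proteases, 13 of 31 midgut hydrolases, 9 of 20 muscle genes, 4 of 11 glycolytic enzymes and 2 of 5 larval cuticle proteins. Over all 9790 genes tested, 3.89% rose and 1.91% fell. These list counts depended on single arrays, as did the counts over all probe sets. Without -4 h replicate 2 the proteasome count was 0, while rises over all probe sets went from 452 to 111. The glue genes, apart from *ng3*, and the storage proteins of the fat body did not pass the test. In RNA of whole animals, fewer cells of a type and less RNA per cell cannot be told apart.

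Of 13966 probe sets, 12334 were above the floor of 60.26 intensity units (the 10th percentile of all values) in all 3 arrays of at least 1 of the stages and were tested. By limma, with the spread taken from the 6 larval arrays only, 672 of them (5.45%) changed by 1.5-fold or more with a p below 0.1 after Benjamini-Hochberg adjustment. The 452 probe sets that were higher at -4 h had a median fold of 2.52, and 79 of them were at least 4-fold and 10 at least 16-fold higher. The 220 that were lower had a median fold of 2.32, and 44 of them were at least 4-fold and 0 at least 16-fold lower. The arrays of the 2 stages did not overlap in any of the 672 probe sets called, nor in 21.2% of all probe sets tested. With 1 probe set per gene, the brightest, 381 of 9790 genes (3.89%) rose and 187 (1.91%) fell, and the median log2 change of all genes was 0.02. These percentages are the background for each gene list. The share of calls that were higher was 67.3%, and it was 53.3% after quantile normalization (300 higher, 263 lower) and 57.9% after scaling to a common median. It was 80.1% without -18 h replicate 1 and 57.2% without -18 h replicate 2.

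Markers of the larval tissues were present in every array. The glue genes *Sgs3*, *Sgs7* and *Sgs8* of the salivary gland, *Lsp2* and *Fbp1* of the fat body, *betaTry* and *Jon65Ai* of the midgut, *Mlc2* of muscle and *PPO1* of hemocytes lay well above the floor in all 6 arrays. The neuronal marker *elav* was dim (66.1 to 140), and the male germ line marker *bam* stood near the floor (48.9 to 72.5). *Mst84Dd*, expressed in the male germ line, had 1537, 1019 and 713 at -18 h and 2371, 3268 and 3770 at -4 h. The part that a different number of males in a pool had in any result was not tested.

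**Figure D1:**
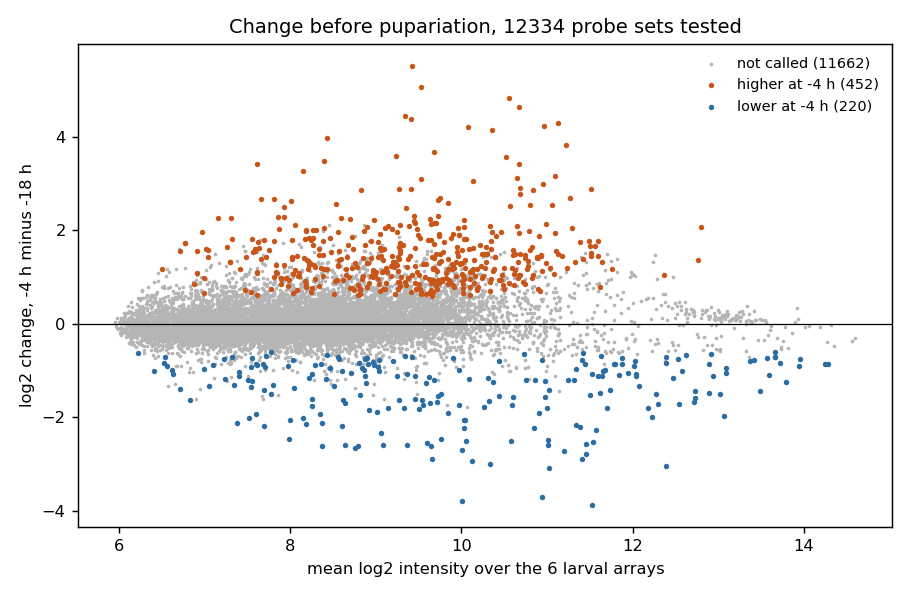
The log2 change between the stages (-4 h minus -18 h, vertical axis) is plotted against the mean log2 intensity over the 6 larval arrays (horizontal axis) for the 12334 probe sets tested, 1 point each. The 452 probe sets called higher reach a larger change than the 220 called lower, and the brightest calls are falls.

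Of the 6 larval arrays, 2 stood apart from the others of their stage. The correlation with the other arrays of the stage across probe sets was 0.832 to 0.881 for -18 h replicate 2 and 0.897 to 0.9 for -4 h replicate 1, whereas the remaining arrays of each stage correlated at 0.982 (-18 h) and 0.99 (-4 h). Median intensities were alike, at 250.7 to 277.3. The deviations of these 2 arrays from their stage means ran in parallel (r = 0.82 across probe sets, which are not independent replicates), with 1186 probe sets above the stage mean by at least 0.5 log2 units in both and 628 below it by as much in both. In both arrays the median deviation was positive among the dimmest probe sets (the lowest of 5 level classes, 0.21 and 0.2) and negative among the brightest (-0.23 and -0.04). The SD among replicates had a median of 0.292 log2 units at -18 h and 0.25 at -4 h, against 0.0899 to 0.172 in the later stages. Without these 2 arrays, 1059 of 9790 genes (10.8%) rose and 547 (5.59%) fell. That fit compares 2 arrays with 2, and the arrays were left out for their deviation in these same data. Such a choice tends to lower the spread on which its p-values rest. Its calls are therefore no independent support for a change. The difference between -4 h replicate 1 and -18 h replicate 2 alone, both of which are in the 6-array fit, reached 1.5-fold in 427 of the 452 probe sets that rose and 179 of the 220 that fell. What sets these arrays apart was not tested. List counts are given with all 6 arrays and, where they differ, without the pair. List counts with 1 array left out are to be read against those over all probe sets. Without -18 h replicate 1, 2 and 3, rises over all probe sets numbered 394, 498 and 107 and falls 98, 372 and 41. Without -4 h replicate 1, 2 and 3, rises numbered 517, 111 and 122 and falls 236, 45 and 64.

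**Figure D2:**
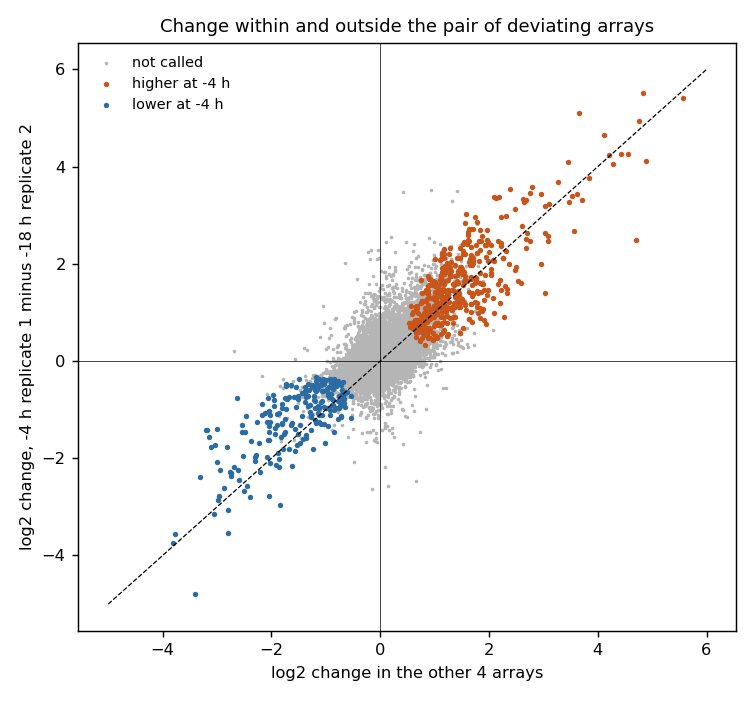
The log2 change from -18 h replicate 2 to -4 h replicate 1, the pair of arrays that deviate from their stages, is plotted against the mean log2 change over the other 4 larval arrays, 1 point per probe set, with the dashed line marking equal change. Called probe sets have equal signs on both axes because their stages do not overlap, and what the plot shows is how far the size of their change differs between the axes.

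Of 19 listed regulators of the 20E cascade, 15 had a probe set annotated to a single gene and 11 were measured. *E74A* and *E75*, which the paper lists as induced by 20E, were not among these 11. Of the 11, 2 rose and 0 fell, with a median log2 change of 0.94, and 7 rose without the deviating pair. *Eip78C*, a nuclear receptor gene of an early-late puff, had intensities of 76.1, 116 and 87.9 at -18 h and 738, 1007 and 917 at -4 h. It rose 9.58-fold (log2 change 3.26, SE 0.22, adjusted p = 0.0012), with all -4 h arrays far above all -18 h arrays. *Hr4*, an orphan nuclear receptor gene of the same temporal class, rose from 190, 146 and 180 to 247, 407 and 362 (log2 change 0.95, SE 0.23, adjusted p = 0.094). Its call was close to the threshold, and was lost without any 1 of the arrays other than -4 h replicate 1 (adjusted p up to 0.38). *Hr39* (131, 70.4 and 108 at -18 h against 144, 277 and 322, adjusted p = 0.16), *Hr78* (281, 139 and 232 against 278, 438 and 568, adjusted p = 0.25) and *Hr3* (51.6, 177 and 59 against 197, 183 and 124, adjusted p = 0.4) did not pass with 6 arrays and did pass without the pair, at adjusted p = 0.0029, 0.013 and 0.0071.

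The receptor gene *EcR* itself had 797, 953 and 759 at -18 h and 617, 579 and 646 at -4 h, a log2 change of -0.44 (SE 0.16, adjusted p = 0.24). The *Broad-Complex* gene *br*, which encodes zinc finger proteins of the first rank of the response, changed by 0.53 (SE 0.24, adjusted p = 0.37), and its -18 h and -4 h arrays overlapped; it passed without the pair (adjusted p = 0.026). The ABC transporter gene *E23* had 428, 1749 and 468 at -18 h and 1991, 1188 and 1200 at -4 h. *Eip93F*, a regulator of the death of larval tissues, had 206, 985 and 296 against 966, 302 and 289. Both genes were highest in the deviating array of each stage, and neither passed (adjusted p = 0.48 and 0.96). *E23* was called without the pair (log2 change 1.42, adjusted p = 0.001) while *Eip93F* was not (0.26, adjusted p = 0.34). The nuclear receptor gene *svp* and the coactivator gene *tai* changed by 0.22 and -0.11 (adjusted p = 0.74 and 0.86).

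Of 7 measured genes listed as further regulators of the primary response, 3 rose and 0 fell (4 and 0 without the pair), with a median log2 change of 0.91. *Sox14* encodes a transcription factor of the HMG box family. It had 463, 520 and 478 at -18 h and 2268, 2298 and 2210 at -4 h and rose 4.64-fold (log2 change 2.22, SE 0.14, adjusted p = 0.0011). The translational repressor gene *brat* rose from 443, 232 and 424 to 885, 1380 and 1057 (log2 change 1.63, SE 0.3, adjusted p = 0.045), and the predicted gene *CG11275* from 234, 138 and 199 to 346, 532 and 583 (1.35, SE 0.28, adjusted p = 0.064). The calls of *Eip78C* and *Sox14* were kept whichever array was left out, whereas those of *brat* and *CG11275* were lost without -18 h replicate 3, -4 h replicate 2 or -4 h replicate 3 (adjusted p up to 0.21 and 0.28). The log2 changes of *cbt*, *hry*, *Blimp-1* and *vri* were 0.91, 0.47, 0.47 and 0.25, and none passed (adjusted p = 0.35, 0.64, 0.2 and 0.57). *cbt* did without the pair (adjusted p = 0.0063).

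The genes that make and inactivate ecdysteroids did not pass in the 6-array fit (0 of 13 measured, median log2 change 0.25), with 3 higher without the pair. *Start1* and *Npc1a*, which handle the sterols from which ecdysteroids are made, had log2 changes of 1.04 and 0.91 (adjusted p = 0.12 and 0.22), and both passed without the pair (0.011 and 0.018). Of 8 measured genes of juvenile hormone metabolism and response, 1 rose: *Jhbp1*, named for juvenile hormone binding, with 194, 177 and 182 at -18 h and 385, 509 and 532 at -4 h (log2 change 1.36, SE 0.18, adjusted p = 0.014; call lost without -18 h replicate 3 or -4 h replicate 2, adjusted p up to 0.1). The juvenile hormone-inducible gene *JhI-26* had 809, 328 and 656 against 161, 209 and 351. It did not pass with 6 arrays (log2 change -1.29, adjusted p = 0.2) and passed as lower without the pair (adjusted p = 0.014).

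**Figure D3:**
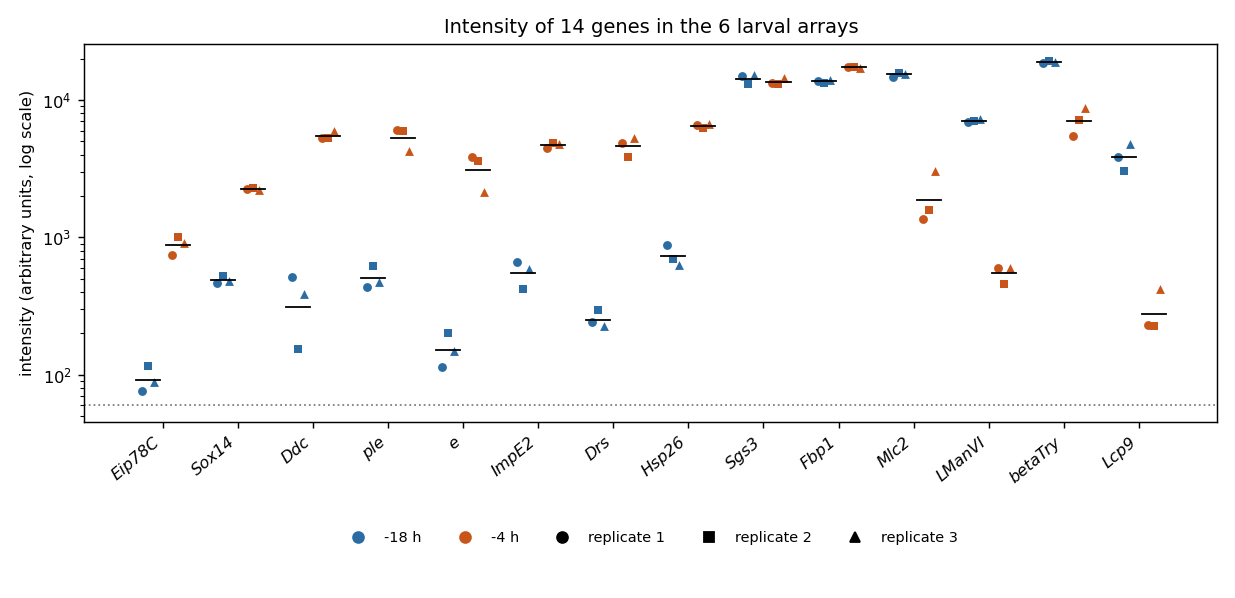
Intensity (arbitrary units, log scale) of 14 genes in each -18 h array (blue) and each -4 h array (orange), with symbols for the replicates, a bar at the geometric mean of the 3 arrays of a stage and a dotted line at the floor of 60.26. The stages are separated for every gene shown except *Sgs3*, whose arrays overlap, while the separation for *Fbp1* is slight.

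Enzymes of cuticle tanning included *e* and *Ddc*, which were among the 12 largest rises. In the epidermis, tyrosine hydroxylase (*ple*) makes DOPA, dopa decarboxylase (*Ddc*) makes dopamine and the *ebony* product (*e*) couples it to beta-alanine, and the products are oxidised to crosslink and colour the cuticle of the puparium. *Ddc* had 512, 154 and 385 at -18 h and 5283, 5295 and 5956 at -4 h, a 17.6-fold rise (log2 change 4.14, SE 0.43, adjusted p = 0.0064). *ple* rose from 434, 621 and 470 to 6010, 5989 and 4234 (10.6-fold, SE 0.22 log2 units, adjusted p = 0.0012). *e* rose from 113, 202 and 148 to 3839, 3590 and 2151 (20.6-fold, SE 0.31 log2 units, adjusted p = 0.0015). None of the -4 h arrays of these genes came near a -18 h array.

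In all, 5 of 15 measured tanning genes rose and 0 fell, with a median log2 change of 0.6 (7 and 1 without the pair). The other rises were *Pu*, GTP cyclohydrolase, the entry enzyme to the tetrahydrobiopterin cofactor that tyrosine hydroxylase needs (465, 162 and 209 against 1620, 1660 and 2381, log2 change 2.89, SE 0.4, adjusted p = 0.017), and *yellow-f*, a dopachrome conversion enzyme (291, 250 and 252 against 664, 860 and 1043, log2 change 1.68, SE 0.2, adjusted p = 0.011). All these calls were kept whichever array was left out, except that of *Pu* without -18 h replicate 3 (adjusted p = 0.11). *Lac*, which was in the list but encodes the septate junction protein Lachesin, changed by 1.5 (adjusted p = 0.14) and *yellow-e* by 0.68 (adjusted p = 0.18), and both passed without the pair (adjusted p = 0.0096 and 0.014). *amd*, which acts in catecholamine metabolism of the cuticle, had 1880, 830 and 1572 against 561, 904 and 710 (log2 change -0.92, adjusted p = 0.26) and was lower without the pair (adjusted p = 0.0076). *speck*, an N-acetyltransferase of dopamine, stood at 521, 406 and 490 and at 421, 541 and 342. *Pcd*, *DAT*, *stw*, *yellow-f2*, *t* and *y* had log2 changes of 0.6, 0.11, 0.02, -0.11, -0.13 and -0.28, none of which passed (adjusted p = 0.29 or more). *stw* (laccase), *yellow-f2* and *y* were highest in the deviating array of each stage.

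A list of tetrahydrobiopterin genes, added after these values were seen, gave 2 rises and 0 falls among 5 measured. The second gene was *Dhpr*, dihydropteridine reductase, which regenerates the cofactor, with 931, 435 and 781 at -18 h and 4365, 5262 and 5203 at -4 h (log2 change 2.85, SE 0.3, adjusted p = 0.0066). *Sptr*, sepiapterin reductase, stood at 257, 330 and 292 and at 324, 236 and 271 (adjusted p = 0.91).

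Few cuticle protein genes passed. The larval cuticle protein gene *Lcp9* had 3880, 3041 and 4794 at -18 h and 228, 225 and 421 at -4 h and fell by 3.79 on the log2 scale (SE 0.3, adjusted p = 0.0025). *Lcp65Ac* fell from 1433, 833 and 1457 to 295, 330 and 431 (log2 change -1.79, adjusted p = 0.023; lost without -18 h replicate 3 or -4 h replicate 2, adjusted p up to 0.13), and these were the 2 falls among 5 measured larval cuticle genes. Of 10 genes listed as prepupal cuticle proteins, 1 rose and 0 fell: *Pcp*, a pupal cuticle protein gene that lies inside an intron of *Gart*, with 537, 390 and 375 against 4198, 4965 and 6158 (log2 change 3.56, SE 0.22, adjusted p = 0.0011). *Edg78E*, *Edg84A* and *Edg91*, cuticle genes of the later prepupa, stayed between 103 and 310 in the 6 arrays and did not pass (adjusted p = 0.14, 0.95 and 0.95), though *Edg78E* was called lower without the pair (0.02). Of 28 genes of chitin metabolism, 3 rose and 2 fell (3 and 6 without the pair). The chitinase gene *Cht5* rose from 453, 579 and 490 to 1087, 957 and 1082 (adjusted p = 0.024) and *Cht2* from 585, 728 and 595 to 1320, 1136 and 1021 (adjusted p = 0.057), and the calls were lost in the absence of -18 h replicate 3 or of -4 h replicate 2 or 3 and, for *Cht2*, of -18 h replicate 1 (adjusted p up to 0.15 and 0.28). The chitin-binding protein gene *obst-E* fell from 2165, 972 and 2033 to 198, 286 and 347 (log2 change -2.59, SE 0.37, adjusted p = 0.018; 0.11 without -18 h replicate 3).

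Of 5 measured genes first isolated as 20E-inducible in imaginal discs (the IMP genes), 2 rose and 0 fell, with the same count without the pair. *ImpE2* had 659, 418 and 592 at -18 h and 4508, 4839 and 4828 at -4 h (log2 change 3.11, SE 0.2, adjusted p = 0.0012). *ImpE3* had 112, 137 and 103 against 360, 488 and 600 (2.02, SE 0.23, adjusted p = 0.0094). Both were called whichever array was left out, and no -4 h array overlapped a -18 h array. *ImpL2*, an insulin-binding secreted protein gene, stood at 1151, 1093 and 984 and at 1330, 1269 and 1208 (adjusted p = 0.54). *ImpL1*, named after its values were seen, had 172, 790 and 211 against 793, 185 and 211, high only in the deviating array of each stage.

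Of 6 measured L71 genes, the late genes of the 71E puff, 1 rose. *Eig71Ea* had 52.8, 105 and 49 at -18 h, below the floor in replicates 1 and 3 but not in replicate 2. At -4 h it had 319, 432 and 302 (log2 change 2.26, SE 0.27, adjusted p = 0.011, called whichever array was left out). *Eig71Eg* changed by 1.25 (adjusted p = 0.12) and passed without the pair (adjusted p = 0.0015), and *Eig71Ed* changed by 0.55 (adjusted p = 0.33).

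Antimicrobial peptide genes gave 2 of the largest rises among 9 measured members, and the other 7 did not pass (list median log2 change -0.04, with the same count without the pair). *Drs* encodes drosomycin, an antifungal peptide, and *Drsl5* a drosomycin-like peptide. *Drs* had 242, 293 and 224 at -18 h and 4889, 3874 and 5271 at -4 h, an 18.5-fold rise (log2 change 4.21, SE 0.19, adjusted p = 0.00024). *Drsl5* had 124, 126 and 136 against 5718, 3477 and 3922, a 33.3-fold rise (5.06, SE 0.22, adjusted p = 0.00023). Among the other members, *Def* stood at 259, 252 and 271 and at 263, 295 and 377 (adjusted p = 0.64). Related peptide genes may share probe signal, and another family member, *Drsl6*, stayed at 153 to 190 in the 6 arrays.

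Of 22 measured genes of microbial recognition and of the Toll and Imd pathways, 3 rose and 1 fell (6 and 1 without the pair). The peptidoglycan recognition protein gene *PGRP-SB2* rose from 350, 437 and 334 to 953, 1124 and 759 (adjusted p = 0.024), while *PGRP-SC2*, an amidase gene expressed in the gut, fell from 8160, 8124 and 9246 to 3305, 3481 and 4790 (adjusted p = 0.029). *PGRP-LA* and, named after its values were seen, *GNBP3* had smaller rises of 0.75 and 0.85 on the log2 scale (adjusted p = 0.075 and 0.078). The calls of *PGRP-SB2* and *PGRP-SC2* were lost without -18 h replicate 3 or -4 h replicate 2 (adjusted p up to 0.15 and 0.18). Those of *PGRP-LA* and *GNBP3* were lost also without -18 h replicate 1 or -4 h replicate 3 (up to 0.34 for each).

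Among 14 heat shock and chaperone genes, 3 rose and 1 fell, with a median log2 change of 0.6 (6 and 1 without the pair). The small heat shock protein gene *Hsp26* had 885, 696 and 633 at -18 h and 6596, 6227 and 6710 at -4 h (log2 change 3.15, SE 0.17, adjusted p = 0.00061). Its neighbour in the same cluster, *Hsp27*, had 1211, 745 and 1003 against 6481, 6132 and 6152 (2.69, SE 0.21, adjusted p = 0.0021). Both were called whichever array was left out. The third rise, *Droj2*, a DnaJ-type cochaperone gene named after its values were seen, was smaller (1633, 1121 and 1187 against 2367, 2778 and 2528, adjusted p = 0.053). *l(2)efl*, which encodes another small heat shock protein, fell from 6423, 5198 and 5556 to 2689, 2969 and 2553 (log2 change -1.06, SE 0.16, adjusted p = 0.021; lost without -18 h replicate 3, -4 h replicate 2 or -4 h replicate 3, adjusted p up to 0.13).

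The proteasome had the largest share of called members among the 41 lists written from the labels, the paper and earlier results. Of 26 measured subunits, 20 rose and 0 fell, all 26 log2 changes were positive, and the median was 1.31 against 0.02 over all genes. The rises included alpha and beta subunits of the core particle (*Prosalpha4*, *Prosbeta6*), ATPases of the regulatory particle (*Rpt2*, *Rpt4*) and its other subunits. *Rpn6*, a lid subunit, had 885, 453 and 727 at -18 h and 2360, 3025 and 2426 at -4 h (log2 change 1.96, SE 0.27, adjusted p = 0.017). *Rpn3* had 2149, 1538 and 1446 against 4156, 4698 and 4447 (1.39, SE 0.19, adjusted p = 0.017), and *Rpn2* 817, 786 and 798 against 1590, 1736 and 1555 (1.02, SE 0.14, adjusted p = 0.016). The summed intensity of the 26 probe sets was 37280, 22630 and 28110 at -18 h and 64930, 69620 and 71450 at -4 h, without overlap, and the lowest sum was that of -18 h replicate 2. Without the pair all 26 rose, with a median of 1.13. The count depended on single arrays, however, as did the count over all probe sets. For the proteasome it was 23, 22 and 1 without -18 h replicate 1, 2 and 3. Without -4 h replicate 1, 2 and 3 it was 15, 0 and 2. Rises over all probe sets were 107, 111 and 122 without -18 h replicate 3, -4 h replicate 2 and -4 h replicate 3, against 452. The log2 changes of *Rpn6*, *Rpn3* and *Rpn2* with an array left out were 1.69 to 2.17, 1.28 to 1.57 and 0.97 to 1.05. The calls of *Rpn6*, *Rpn3* and *Rpn2* were each lost without -4 h replicate 2, those of *Rpn3* and *Rpn2* also without -18 h replicate 3 and that of *Rpn3* without -4 h replicate 3 (adjusted p up to 0.1, 0.11 and 0.12).

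**Figure D4:**
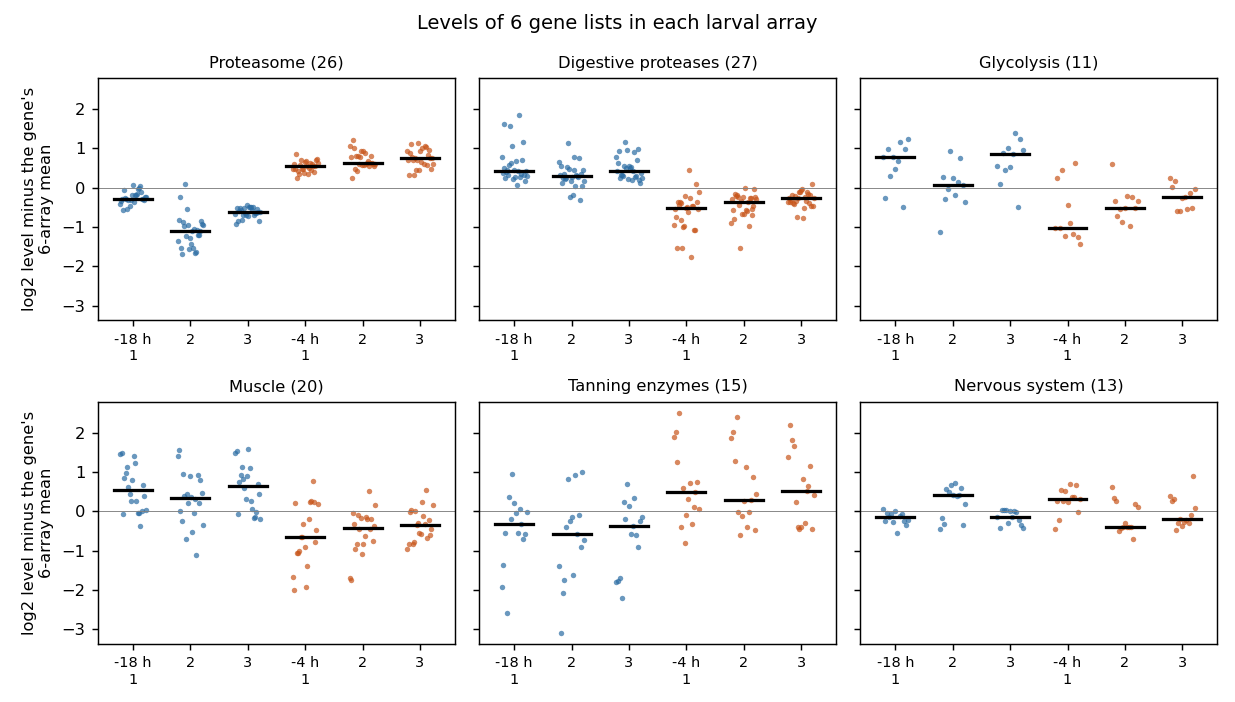
For 6 gene lists, the log2 level of each measured gene (number of genes in parentheses) minus its mean over the 6 larval arrays is shown for each array, with points for genes and a bar for the median. Proteasome subunits are lowest in -18 h replicate 2 and high in all -4 h arrays, digestive proteases, glycolysis and muscle are lower at -4 h, tanning enzymes spread widely, and nervous system genes are highest in the deviating array of each stage.

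Genes of ubiquitin conjugation rose in 5 of 22 cases and fell in 0 (12 and 0 without the pair), with a median log2 change of 0.49. They included the cullin gene *Cul1* (512, 339 and 391 against 1254, 1079 and 1026, adjusted p = 0.017) and the ubiquitin-conjugating enzyme genes *ben* (850, 638 and 787 against 1528, 1638 and 1668, adjusted p = 0.022) and *Ubc2* (649, 618 and 507 against 1061, 1178 and 1149, adjusted p = 0.034). Of 22 autophagy genes, 4 rose and 0 fell (9 and 0 without the pair), with a median of 0.35. *Atg18b*, *Atg2* and *Atg1*, the last encoding the kinase that starts autophagy, rose by 1.76, 1 and 1.09 on the log2 scale (adjusted p = 0.025, 0.028 and 0.062). *Atg1* had 203, 156 and 213 at -18 h and 312, 430 and 488 at -4 h. Of 11 apoptosis genes, 2 rose (3 without the pair): the initiator caspase gene *Dronc* (265, 216 and 226 against 431, 447 and 560, adjusted p = 0.034) and *Dark*, which encodes its activating partner (146, 241 and 175 against 357, 338 and 356, adjusted p = 0.08). The counts of these 3 lists were all 0 when either -4 h replicate 2 or -18 h replicate 3 was left out. Leaving out -4 h replicate 3 gave 1 (ubiquitin), 0 and 0. Each gene named here lost its call without either of the first 2 arrays, with an adjusted p up to 0.33 (*Dark*). *Dark* was also lost without -18 h replicate 1 or -4 h replicate 1, *Atg1* without -18 h replicate 1, and all but *Cul1* without -4 h replicate 3.

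Enzymes of purine synthesis were made a list after their values were seen, and 4 of 9 measured members rose while 0 fell. *ras*, IMP dehydrogenase, had 352, 320 and 262 at -18 h and 1123, 1240 and 1237 at -4 h (log2 change 1.96, SE 0.17, adjusted p = 0.0034), and *Gart*, which carries out several early steps, had 616, 349 and 551 against 1627, 1899 and 2082 (1.92, SE 0.25, adjusted p = 0.013). *Paics* rose from 1446, 475 and 1012 to 3411, 3521 and 3632 (adjusted p = 0.051) but not without -18 h replicate 3, -4 h replicate 2 or -4 h replicate 3 (up to 0.22).

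Among enzymes of the larval midgut, 14 of 27 digestive proteases were lower and 0 higher (19 and 0 without the pair), with a median log2 change of -0.73 and 0 positive values. These are trypsins and Jonah serine proteases secreted into the gut lumen, many of them near-identical copies that may share probe signal. *Jon66Cii* had 8270, 6145 and 6281 at -18 h and 965, 965 and 1670 at -4 h (log2 change -2.56, SE 0.27, adjusted p = 0.0065). *kappaTry* had 582, 631 and 525 against 238, 245 and 215 (-1.32, SE 0.15, adjusted p = 0.0094), and *Jon25Biii* 13084, 12000 and 12958 against 3950, 4064 and 5895 (-1.48, SE 0.2, adjusted p = 0.015). *betaTry*, shown as a midgut marker, had 18602, 19237 and 18852 against 5488, 7119 and 8809. The summed intensity of the list ranged from 237500 to 254100 in the -18 h arrays and from 124500 to 151700 in the -4 h arrays. The count of falls was 6, 18 and 2 without -18 h replicate 1, 2 and 3 and 12, 2 and 6 without -4 h replicate 1, 2 and 3. The calls of *Jon66Cii* and *kappaTry* were kept in all these fits, and those of *Jon25Biii* and *betaTry* were lost without -18 h replicate 3 or -4 h replicate 2 (adjusted p up to 0.1 and 0.12).

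Of 31 midgut carbohydrate and lipid hydrolases, 13 fell and 1 rose (20 and 1 without the pair), with a median of -0.61. *LManVI*, a lysosomal-type alpha-mannosidase gene, had 6906, 7044 and 7318 at -18 h and 601, 455 and 596 at -4 h (log2 change -3.7, SE 0.17, adjusted p = 0.00024), and *LManV* had 5501, 5851 and 6813 against 1236, 723 and 863 (-2.72, SE 0.23, adjusted p = 0.0033). The lysozyme gene *LysS* fell from 16651, 17541 and 16756 to 3859, 3848 and 5488 (-1.97, SE 0.19, adjusted p = 0.0051). These 3 were called whichever array was left out, while the count of falls ranged from 4 (without -18 h replicate 3 or -4 h replicate 2) to 11 (without -4 h replicate 1). The single rise, *Mal-A5*, a maltase gene, had 1541, 971 and 1103 against 3351, 3143 and 3229 (adjusted p = 0.017; up to 0.12 without -18 h replicate 3, -4 h replicate 2 or -4 h replicate 3).

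A list of acyl-CoA-binding proteins, made after their values were seen, held 4 falls and 1 rise among 5 measured genes, and the falls numbered 2 to 4 with an array left out. *Acbp5* had 1355, 752 and 1274 at -18 h and 221, 139 and 168 at -4 h (log2 change -2.66, SE 0.29, adjusted p = 0.0079), and *Acbp6* 5774, 3195 and 7118 against 1190, 699 and 719 (-2.59, SE 0.36, adjusted p = 0.017). *Acbp1* had 759, 520 and 655 against 1291, 1405 and 1705 (1.19, SE 0.2, adjusted p = 0.033), though its call was lost without -18 h replicate 3, -4 h replicate 2 or -4 h replicate 3 (up to 0.17).

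Muscle genes fell in 9 of 20 cases and rose in 0 (12 and 1 without the pair), with a median log2 change of -0.89. The myosin light chain genes *Mlc2* (14857, 15738 and 15626 at -18 h against 1350, 1587 and 3034 at -4 h) and *Mlc1* (7444, 7160 and 7647 against 857, 835 and 1393) fell by 3.04 and 2.89 on the log2 scale (SE 0.31 and 0.23, adjusted p = 0.0057 and 0.0024). The troponin T gene *up* fell from 3783, 3714 and 3648 to 918, 985 and 1074 (log2 change -1.91, SE 0.14, adjusted p = 0.0019), and the arginine kinase gene *Argk1* from 10758, 11671 and 10997 to 3914, 3994 and 4456 (-1.44, SE 0.14, adjusted p = 0.0056). All these calls were kept whichever array was left out, although the count ranged from 5 (without -18 h replicate 3) to 9. In -4 h replicate 3 *Mlc2* and *Mlc1* were higher than in the other -4 h arrays but far below every -18 h array.

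Glycolysis had 4 falls and 0 rises among 11 measured genes (8 and 0 without the pair), with a median of -0.9. The aldolase gene *Ald1* fell from 8008, 8823 and 9263 to 1974, 2532 and 3056 (log2 change -1.81, SE 0.2, adjusted p = 0.0083, in every fit with an array left out). *Gapdh1* fell from 7463, 6269 and 7705 to 3946, 3710 and 4412 (adjusted p = 0.05) and *Pglym78*, a phosphoglycerate mutase gene, from 4591, 2275 and 5368 to 901, 1048 and 1391 (adjusted p = 0.051). In the deviating arrays the median deviation of the list from its stage means was negative (-0.63 and -0.33), and its count of falls was 1, 5 and 1 without -18 h replicate 1, 2 and 3 and 2, 1 and 1 without -4 h replicate 1, 2 and 3. The glycogen phosphorylase gene *Glyp* was the 1 fall among 11 genes of trehalose, glycogen and gluconeogenesis, from 2960, 1469 and 2709 to 532, 747 and 941 (adjusted p = 0.057), and without the pair 3 fell and 1 rose. *Gapdh1*, *Pglym78* and *Glyp* lost their calls in 4 or 5 of these 6 fits, with adjusted p up to 0.27. Of 14 genes of the citric acid cycle, only *Idh3g* passed in the 6-array fit, falling from 2810, 2646 and 3007 to 1147, 1330 and 1196 (log2 change -1.2, adjusted p = 0.011, called whichever array was left out). Without the pair 2 fell and 2 rose, the rises being *Scsalpha1* and *ScsbetaA*, named after their values were seen, which encode subunits of succinyl-CoA synthetase (adjusted p = 0.011 and 0.016). Of 69 genes of oxidative phosphorylation, 3 fell (*COX5B*, *cype* and *ATPsyndelta*, with log2 changes of -0.69, -0.71 and -0.87) and 0 rose, and the median was -0.1. Without the pair 6 fell and 3 rose. These 3 calls had adjusted p = 0.058, 0.063 and 0.071 and rose to as much as 0.33 with an array left out. *FASN1*, fatty acid synthase, fell from 1255, 437 and 1047 to 111, 218 and 250 (log2 change -2.19, adjusted p = 0.073) and *ATPCL*, ATP citrate lyase, which supplies its substrate, rose from 875, 616 and 932 to 1859, 2024 and 2045 (1.31, adjusted p = 0.022). *FASN1* lost its call in 5 of the 6 fits with an array left out (adjusted p up to 0.3) and *ATPCL* without -4 h replicate 2 or -4 h replicate 3 (up to 0.13).

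Cytochrome P450 genes fell in 7 of 74 cases and rose in 1 (15 and 1 without the pair). *Cyp6a23* had 1519, 358 and 1033 against 69.1, 154 and 227 (log2 change -2.62, adjusted p = 0.094), *Cyp9b2* 3951, 1666 and 2942 against 954, 768 and 1018 (-1.57, adjusted p = 0.063), and *Cyp28a5* 283, 177 and 335 against 128, 88.9 and 97 (-1.31, adjusted p = 0.068). The count of falls was 9 when -18 h replicate 2 was left out, 4 when -4 h replicate 1 was, and 0 without any 1 of the other arrays, and the adjusted p of these 3 genes then reached 0.34. Of 34 glutathione S-transferase genes, 1 rose (*GstO3*, adjusted p = 0.031) and 2 fell (*GstE9* and *GstE5*, adjusted p = 0.056 and 0.081), with 3 and 8 called without the pair, and these calls too were lost without single arrays (up to 0.36).

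Of 15 hemocyte genes, 2 fell and 0 rose (4 and 1 without the pair). The prophenoloxidase gene *PPO2*, expressed in crystal cells, fell from 4870, 2650 and 3689 to 557, 661 and 721 by its brighter probe set (log2 change -2.5, SE 0.25, adjusted p = 0.0057), whereas its dimmer probe set, with a log2 change of 0.38, was not called. *fon*, a clotting factor gene, fell from 4420, 4249 and 5112 to 2352, 1916 and 2634 (adjusted p = 0.039; up to 0.21 with an array left out). *PPO1* had a log2 change of -0.89 (adjusted p = 0.17) and passed without the pair (adjusted p = 0.0022). Other hemocyte markers, *Hml* (807, 615 and 749 against 778, 684 and 626) and *NimC1* (146, 113 and 111 against 110, 154 and 170), did not pass.

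Against these changes, several abundant larval products were nearly level. The brightest of them, such as *Sgs7* and *Lsp2*, lay near the highest values of the -4 h arrays (21800 to 22930). Whether changes are understated at such levels was not tested. Of 9 measured salivary gland glue genes, 0 rose and 1 fell, with a median log2 change of -0.03. *Sgs3* had 14933, 13083 and 15173 at -18 h and 13269, 13112 and 14588 at -4 h, and *Sgs4*, *Sgs5*, *Sgs7* and *Sgs8* had log2 changes of 0.16, 0.09, -0.03 and 0.04 (adjusted p = 0.8 or more). *Sgs1* changed by -0.45 (6758, 6464 and 6697 against 4216, 5357 and 5091, adjusted p = 0.23), *Eig71Ee* by 0.28 and *ng4* by -0.15. The exception was *ng3*, one of the small pre-intermoult genes transcribed in the gland before the glue genes, which fell from 1321, 752 and 1199 to 316, 275 and 321 (log2 change -1.81, SE 0.24, adjusted p = 0.015; 0.1 without -18 h replicate 3). Of 9 storage and serum proteins of the fat body, 0 passed in either direction, with *Lsp2* at 18045 to 19209 in the 6 arrays. *Fbp1*, the receptor for storage protein uptake, had 13827, 13274 and 14129 against 17421, 17480 and 17119, groups that do not overlap, but a log2 change of only 0.34 (adjusted p = 0.3). Of 31 cytosolic ribosomal proteins, 66 mitochondrial ribosomal proteins, 31 genes of the secretory pathway, 13 nervous system genes and 20 genes of the cell cycle and DNA replication, 0 passed, with medians of 0.16, 0.06, 0.41, -0.06 and 0.07. Positive log2 changes numbered 29, 41, 29, 6 and 12 in the same order, against 5213 of 9790 genes in all. Lists without a call were thus not all level. Across all genes tested, 1908 probe sets had an unadjusted limma p under 0.05. Without the pair, 1 ribosomal, 1 secretory and 2 nervous system genes were called higher, and 0 in the remaining lists.

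**Figure D5:**
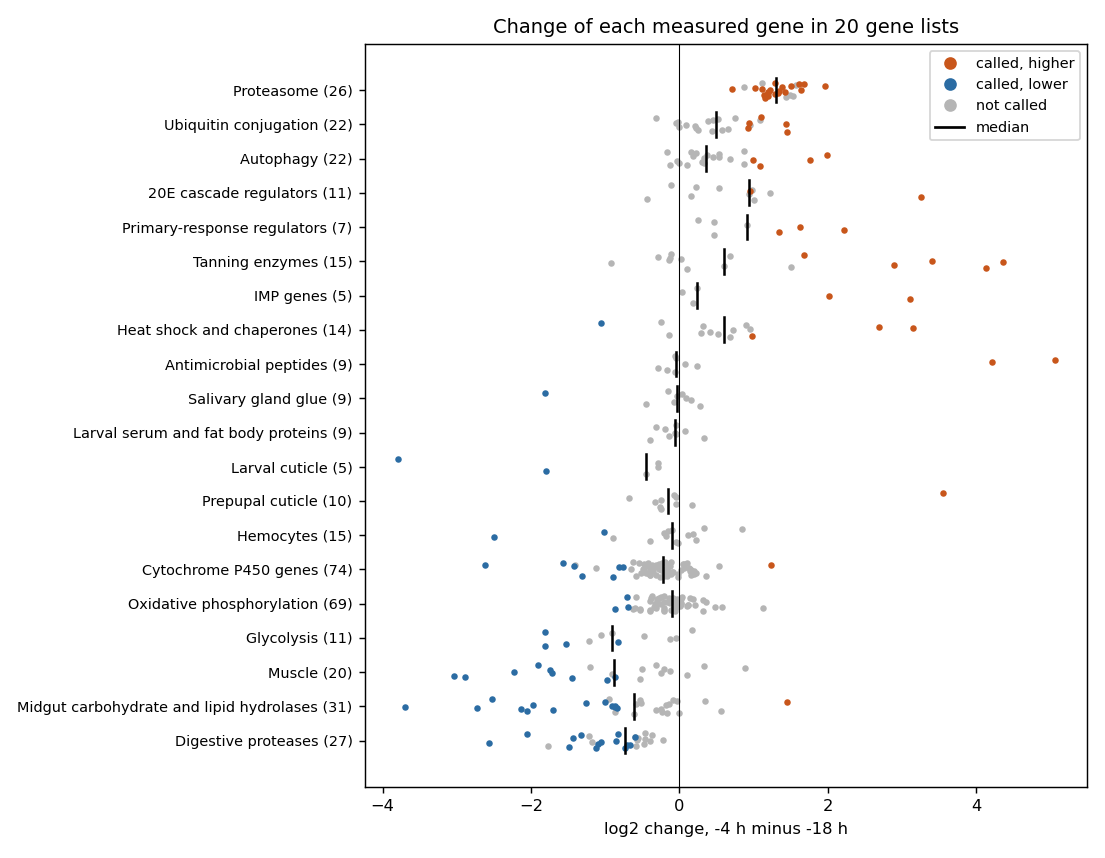
The log2 change (-4 h minus -18 h) of each measured gene in 20 gene lists (number of genes in parentheses), 1 point per gene, orange where called higher, blue where called lower and grey where not called, with a bar at the list median. Proteasome subunits lie to the right of 0 and digestive proteases to the left, the glue and fat body lists centre on 0, and the tanning, IMP and antimicrobial lists each hold a few large rises beside uncalled members.

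Among the other genes with the largest changes, the predicted genes *CG7906* (81.4, 129 and 99.7 against 5519, 4575 and 3964), *CG7924* (258, 312 and 282 against 9579, 7832 and 6852) and *CG14664* (249, 521 and 272 against 9031, 7504 and 7978) rose 45.7-fold, 28.3-fold and 24.8-fold (adjusted p = 0.00023, 0.00021 and 0.0012). *CG2444*, *CG5171*, *CG5391*, *CG11529* and *CtsL3* rose 19.7-fold, 18.7-fold, 14.1-fold, 12.8-fold and 12-fold. The -4 h arrays of these 8 genes were at 1782 intensity units or more and the -18 h arrays at 809 or less. The largest fall was that of *CG17105*, from 10636, 11404 and 11755 to 409, 435 and 2569, in which -4 h replicate 3 was far above the other -4 h arrays (adjusted p = 0.039; up to 0.18 without -18 h replicate 3 or -4 h replicate 2). *CG7296*, *CG11300*, *CG14258* and *CG7465* fell by 3.08, 3, 2.9 and 2.7 on the log2 scale, with adjusted p = 0.0019, 0.02, 0.06 and 0.0066. *CG11300* missed the threshold without -4 h replicate 2 (adjusted p = 0.11), as did *CG14258* in 4 of the 6 fits with an array left out (up to 0.26).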

How the data were processed

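RNA of whole *w1118* animals was hybridised to 27 oligonucleotide arrays, and the 3 arrays at -18 h and 3 at -4 h were compared. The deposited values are probe set intensities normalized by the authors with dChip 1.2, on a linear scale. Values were floored at 60.26 (the 10th percentile of all values) and log2 transformed, and the 12334 of 13966 probe sets that exceeded it throughout at least 1 stage were fitted with limma 3.58.1 (R 4.3.3) to the 6 arrays. Calls required a Benjamini-Hochberg adjusted p under 0.1 over all probe sets tested and a change of at least 1.5-fold. Fold changes of genes at the floor are understated. Of the probe sets, 12443 had 1 gene symbol in the platform annotation, 327 several and 1196 none, and symbols were updated through RefSeq. Array number limits the precision, with 4 residual degrees of freedom.

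The genes named were the 12 largest rises and 12 largest falls without overlap between stages, from each list the 3 genes of lowest adjusted p, and all members of the regulator, glue and tanning lists. The brightest tested probe set represented a gene. The gene lists and members were chosen with earlier results of these data known. The lists of purine, tetrahydrobiopterin and acyl-CoA-binding genes, and *betaTry*, *ImpL1*, *Mal-A5*, *Acbp1*, *GNBP3*, *Droj2*, *Drsl6*, *Prosalpha4*, *Prosbeta6*, *Rpt2*, *Rpt4*, *Jon65Ai* and the genes of the closing section were chosen after their values were seen. The fit was run on simulated data whose noise was drawn independently for each probe set and array. That simulation held no deviation shared between arrays, so it cannot show how such a deviation affects the calls. Other scalings, floors, filters, fits and left-out arrays were tried as alternatives. Promoter and protein sequences were not analysed here.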

Additional observations from a re-analysis of the deposited data

How the results depend on the processing

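With 672 probe sets changed (452 higher, 220 lower) in the fit to the 6 arrays, the counts ran from 95 to 2106 over the alternatives. Leaving out 1 array gave 148 to 870 changed, 107 to 517 higher and 41 to 372 lower, the lowest without -18 h replicate 3 and the highest total without -18 h replicate 2. Without both deviating arrays, which were left out for their deviation in these same data, there were 2029 (1344 higher, 685 lower). Of these, 445 and 218 were among the 452 and 220. A fit to all 27 arrays gave 1744 (1274 and 470) and array weights 2106 (1464 and 642). Quantile normalization lowered the count of rises to 300. An adjusted p under 0.05 left 368 (257 and 111), and a minimum of 2-fold left 143 falls. Deviations of same-numbered arrays correlated at -0.825, -0.726 and 0.502. These values are shaped by the deviating arrays, which carry different numbers, so they cannot show whether arrays were paired by number. With the number as a replicate block, 95 probe sets changed (64 and 31). The other alternatives moved these counts by less than 1.5 times. Of 96 named genes called, 80 or more stayed called under every scaling, floor, filter and variance setting, 39 with the replicate block and 45 to 92 with 1 array left out, and 0 changed direction in any alternative run. The difference of the deviating pair alone, an alternative chosen after seeing the data, reached 1.5-fold in the direction of the fit in 427 and 179; its sign could not differ, since the stages do not overlap in any call. The causes were not tested.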

Other observations

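Levels at 0 h, from arrays outside the fit, mostly continued the change seen before pupariation. Of the 381 genes higher at -4 h, 312 were higher still at 0 h and 13 had returned past the midpoint between the larval stages. Of the 187 lower genes, 162 were lower still and 1 had returned. The matching shares over all genes tested were not computed. *speck*, the dopamine N-acetyltransferase gene with no call between the larval stages, had a mean of 4840 at 0 h, and *Sgs3* had 2398. *CG5391* and *CG11529*, among the largest rises, had means of 2171 and 728 at 0 h. These were below their -4 h means of 9062 and 2945 but still above their -18 h means of 648 and 239.

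Genes that fell often lay beside each other. Of 186 lower genes with a position, 32 (17.2%) had a lower neighbour, against 267 of 9732 genes in all (2.74%). For higher genes the values were 25 of 380 (6.58%) and 567 of 9732 (5.83%). The longest runs of lower genes were *LManIII* to *LManVI* (4 genes), *Jon25Biii* to *Jon25Bi* (3) and *LysB* to *LysE* (3). These runs hold related copies, whose probe sets may share signal.

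Genes furthest below their stage mean in both deviating arrays included *Trp1* (-1.45 log2 units in -18 h replicate 2 and -1.04 in -4 h replicate 1), *alpha-Cat* (-1.39 and -1.07) and *crq* (-1.3 and -1.15). *Tomosyn* (1.37 and 1.42) and *Tusp* (1.56 and 1.46) were above it in both.

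Of 19 genes of the testis list, 2 rose and 0 fell (8 and 1 without the deviating pair). *Mst84Dd* and *Mst87F* had log2 changes of 1.57 and 1.4 (limma adjusted p = 0.058 and 0.075).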
